A study of Drosophila melanogaster with 29 samples.

Results

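The France strain, a wild-type laboratory stock of Drosophila melanogaster also known as Kerbiniou, was compared between the sexes in 3 arrays of males and 3 arrays of females, out of 29 arrays for the whole series. Members were chosen by label alone, as the arrays titled France and male or female. The other 23 arrays held 12 males and 11 females of 4 further wild-type strains, Antigua, Hikone and the Oregon-R stocks kept at Glasgow and Cambridge, with 3 arrays per strain and sex except for 2 Hikone females. Flies were whole adults aged 0 to 6 hours after eclosion and reared at 25 °C, females were virgin, no strain carried a stated mutation or treatment, and RNA was extracted separately for each replicate group of flies. Expression is given on the log2 scale as deposited, so that a value higher by 1 is a 2-fold higher level of the same probe set. Levels of different probe sets cannot be set against each other.

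Sex-biased expression in Drosophila adults comes largely from the germline and from sex-specific reproductive glands. Females accumulate yolk and eggshell transcripts and the maternal RNA stored in eggs. Males express sperm components in the testis and secreted proteins in the accessory glands, ejaculatory duct and ejaculatory bulb that pass to the female at mating. A newly eclosed fly is also still hardening and colouring its cuticle, and virgin females soon begin to provision their first eggs.

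Transcripts specific to each sex matched the labels in all 6 France arrays. Yp1, a yolk protein gene, measured 2.24, 2.08 and 2.06 in the males and 13.82, 13.90 and 13.78 in the females. SP, which encodes the accessory gland sex peptide, measured 10.64, 10.69 and 10.81 in the males and 1.12, 1.11 and 1.07 in the females. Neither gene overlapped between the sexes. Replicate arrays correlated at 0.993 to 0.995 over probe sets in France males and 0.995 to 0.996 in France females. Outside France, Cambridge male replicate 1 measured 10.85 for Yp1 against 4.95 and 2.18 in the other Cambridge males, and Cambridge female replicate 3 measured 5.94 for Acp95EF and 7.26 for EbpII, both male gland transcripts, against at most 1.95 and 2.47 in the other Cambridge females. Hikone male replicate 1 (5.38 for Yp1 against 2.10 and 2.08) and Hikone female replicate 1 (4.79 for Acp95EF and 4.97 for EbpII against 1.51 and 2.19) showed a smaller excess of the same kind. The numbers of sex differences and of departures are therefore also given without the 2 Cambridge arrays. The number of sex differences is also given without all 4. Most other counts below include all of these arrays. The probe sets for the 3′ and 5′ ends of actin differed by 2.10 to 2.77 in France males and 1.64 to 2.06 in France females. In the males and females of the other strains they differed by 2.73 to 3.83 and 1.90 to 3.24. For GAPDH the median was 1.80 in France males against 2.50 in other males, and 1.64 against 1.80 in females. For eIF-4a it was 3.12 against 3.85 in males and 2.73 against 3.80 in females. The part of this 3′ to 5′ difference, a sign of RNA quality, in the comparisons between strains and in the departures was not tested.

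The sexes of the France strain differed at 3148 of 13966 probe sets, which is 22.5% of those tested. Males were higher at 1288 (9.22%) and females at 1860 (13.3%), by limma with Bonferroni adjustment at 0.01. The males exceeded the females by over 2-fold at 1235 probe sets (8.84%) and the females exceeded the males at 1637 (11.7%). Without a test, the 3 arrays of one sex all lay above those of the other at 10107 probe sets (72.4%). Differences higher in males were fewer but larger. Beyond a log2 difference of 3 males were the higher sex at 644 probe sets and females at 293, and beyond 8 at 52 and 17. In whole flies fewer cells of a type and less RNA per cell cannot be told apart. With each array centred on its median the count was 3796, of which 30.6% were higher in males, against 40.9% of those called in the deposited values, and the median difference over all probe sets was -0.22 in place of -0.11. Without the 2 Cambridge arrays, which enter only the estimate of the spread, 3413 probe sets were called, 1325 higher in males and 2088 in females, and without all 4 arrays 3275 were called.

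Taking the brightest probe set of each gene, 2789 of 10843 genes were called (25.7%), 1179 higher in males (10.9%) and 1610 higher in females (14.8%). On the X chromosome 133 of 1763 genes were over 2-fold higher in males (7.54%) and 311 over 2-fold higher in females (17.6%). On the autosomes 1000 of 9035 genes were over 2-fold higher in males (11.1%) and 1129 in females (12.5%). The X chromosome thus held a smaller share of genes higher in males and a larger share higher in females than the autosomes, a description for which no test was made.

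Egg production genes gave the highest female values. Of 19 eggshell genes, expressed by the follicle cells around the oocyte, 17 were higher in France females and none in males, with a median difference of -7.03 against -0.11 over all genes. Vm34Ca, a vitelline membrane gene, was 10.34 lower in males on the log2 scale, with 3.76, 3.74 and 3.70 in males and 14.17, 13.75 and 14.31 in females. Cp38, a chorion gene, differed by -8.87. The chorion gene Cp15 differed by -9.08 (adjusted p = 3.98e-03), a call lost when any 1 of the 6 France arrays was left out, with adjusted p up to 0.0494. The call held in the 6 France arrays alone and without the 2 Cambridge arrays. Of the yolk protein genes, Yp1 differed by -11.71 ± 1.23 (SE, 3 arrays per sex in France, limma adjusted p = 7.84e-05) and Yp2 by -10.96. The SE given here and below rests on the spread within groups over all arrays of the series, not on the France arrays alone. For Yp1 that spread takes in Cambridge male replicate 1, which measured 10.85.

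Yp3, the remaining yolk protein gene, was not called in France (difference -5.59, adjusted p = 0.178). It measured 13.18, 13.24 and 13.14 in France females and 8.32, 7.04 and 7.44 in France males, where the median of the 12 other male arrays was 4.55 and the highest, 9.67, was above them. France males thus lay above that median for Yp3 but within the range of the other males. The Yp3 difference departed from the mean of the other strains by 1.94 ± 1.10 (SE), which was not called. Without the 2 Cambridge arrays all 3 yolk protein genes were called higher in France females.

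Among 33 female germline genes, 25 were higher in France females and none in males, with a median of -3.45. The germ plasm genes osk and nanos differed by -8.66 and -8.57. The maternal thioredoxin gene dhd differed by -9.94 (adjusted p = 1.38e-03) and lost its call without any 1 of the 6 France arrays, with adjusted p up to 0.0159. Its call held in the 6 France arrays alone and without the 2 Cambridge arrays. Cell cycle and DNA replication genes gave a like count, 19 of 20 higher in females with a median of -4.29. CycB, a mitotic cyclin gene, differed by -9.18, PCNA, the replication clamp, by -5.91 and the kinase gene Cdk2 by -5.29. Of 26 cytoplasmic ribosomal protein genes 16 were higher in females, by a median of -0.50 over the list, with RpS5b, an ovary-enriched paralogue, at -5.44.

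Male reproductive genes were measured in 3 groups. All 6 genes of the ejaculatory duct and bulb were higher in France males, with a median of 8.20. EbpII, an ejaculatory bulb protein gene, differed by 11.28 and Anp, an antibacterial peptide of the ejaculatory duct, by 11.15. Of 27 accessory gland genes 25 were higher in males and none in females, with a median of 6.02. Acp95EF, an accessory gland peptide gene, was the highest at 11.43 ± 0.75 (SE, adjusted p = 1.63e-08), with 13.17, 13.30 and 13.26 in males against 2.41, 1.5 and 1.53 in females. Of 42 testis and sperm genes 27 were higher in males and 1, dah, which is also needed for cellularisation of the early embryo, was higher in females (-5.70). The 4 sperm tail genes Mst84Da, Mst84Db, Mst84Dc and Mst84Dd differed by 10.78, 10.24, 10.53 and 10.21.

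Heat shock genes fell on both sides, with 5 of 14 called towards males and 4 towards females. The male group held Hsp60C (7.48), Hsp60B (7.29), which is needed in sperm formation, Hsc70-2 (7.18) and Hsp68 (2.96). The female group held Hsp26 (-3.38) and Hsp27 (-2.64), small heat shock genes known to be active in ovarian nurse cells, and Hsf (-1.71), the heat shock transcription factor. Of 13 sex determination and dosage compensation genes 4 were higher in females and none in males. These were Sxl (-1.84), the female switch gene, msl-1 (-2.59) and msl-3 (-1.28), components of the male dosage compensation complex whose RNA is measured here and not their protein, and tra2 (-0.86), a splicing partner of the female factor Tra. Without the 2 Cambridge arrays 5 of the 13 genes were higher in females and 1 in males.

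Of 12 somatic sex-biased genes 1 was higher in males and 3 in females. Fad2, a desaturase of female cuticular hydrocarbons, differed by -7.06 ± 0.30 (SE) with 2.68, 2.76 and 2.63 in males and 9.62, 9.86 and 9.78 in females. The elongase gene eloF, of the same pathway, differed by -6.86. The fat body gene fit differed by -3.81 and lost its call without France female replicate 3 (-3.66, adjusted p = 0.0121). Cyp4d21, a male-enriched cytochrome P450 gene, differed by 3.81, and belongs to a list of 83 cytochrome P450 genes with 11 higher in males (13.3%) and 3 in females (3.61%), against 10.9% and 14.8% of all genes. The 28 immune recognition and signalling genes were at the share of all genes, with 3 higher in males (10.7%) and 4 in females (14.3%). The 4 higher in females were Tl (-2.48), pll (-2.12), spz (-1.70) and tub (-1.18), which act in Toll signalling both in the dorsal-ventral axis of the embryo and in immunity. Tl is also a member of the female germline list above, and pll lost its call without any 1 France array. None of 39 oxidative phosphorylation genes, 15 haemocyte and basement membrane genes or 7 antimicrobial peptide genes was called in either direction.

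In further lists the share of genes called in either direction lay below the 25.7% of all genes, and the values are given without a reading of the list. Of 23 odorant binding and chemosensory genes 4 were higher in males (17.4%) and none in females, among them Obp44a (3.62), Obp83b (1.61) and Obp56h (1.13), of the odorant binding protein family, and the last was lost without any of 5 single France arrays. Of 10 circadian clock genes Clk was higher in males (1.75) and cyc in females (-1.79), although their proteins act as partners in the clock. Of 18 ecdysone response genes 3 were higher in females (16.7%) and none in males, among them EcR, the ecdysone receptor (-1.19). Gad1, which makes the transmitter GABA, was the sole call among 16 neural genes (1.33), and zormin, a muscle protein gene, the sole call among 26 muscle genes (1.09). Of 34 cuticle protein genes 3 were higher in males (8.82%) and none in females, with Cpr62Bb at 1.98. Cpr49Ab (2.06) and Cpr49Ah (1.64), of the same family, were also called higher in France males but are not in this list. The call of Cpr49Ah was lost without any 1 France female array.

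**Figure D1:**
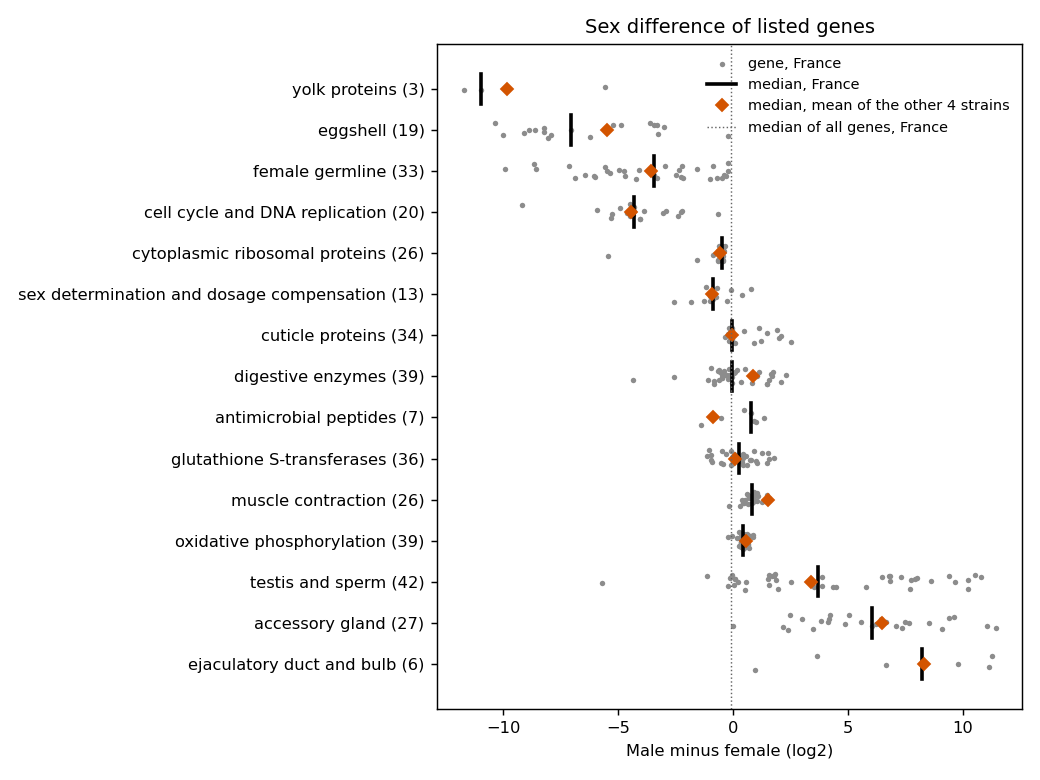
Male minus female difference (log2, horizontal axis) of each listed gene in the France strain, 1 row per gene list, with medians of France and of the other 4 strains marked. The eggshell list has a France median of -7.03 and the ejaculatory duct and bulb list one of 8.20.

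The France difference was next set against the mean of the male minus female differences in the other 4 strains. The difference between them is called a departure here, above 0 where France lay further towards males than the other strains did and below 0 where it lay further towards females. Over all 13966 probe sets the France difference correlated with that mean at r = 0.971, with a slope of 0.939, across probe sets that are not independent replicates. Of the 3148 probe sets called in France 3130 had the same sign in the other strains, 18 had the opposite sign and 0 were called in both with opposite signs.

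A departure was called at 123 probe sets (0.881%), of which 73 lay towards males (0.523%) and 50 towards females (0.358%), and 85 were over 2-fold. Without the 2 Cambridge arrays 142 were called, 76 towards males and 66 towards females, and 101 of the 142 were shared with the 123. Of the 43 departures listed below as flagged for a closer look, 21 lost their call when 1 of the other strains was left out. The other 22 held without any single array or strain. Departures named only under other observations were not part of these checks. Cpr49Ah, Cpr97Ea, CG14990, CG11899, Nmdmc, psh and CG3999, for which only losses by single arrays are given below, were among the 21. The same contrast for each other strain called 76 probe sets for Antigua, 324 for Glasgow, 104 for Cambridge and 74 for Hikone, in comparisons that share arrays. By brightest probe set 108 genes departed (0.996%), 62 towards males (0.572%) and 46 towards females (0.424%). They included 14 of 1763 X-linked genes (0.794%), 11 of them towards males, and 94 of 9035 autosomal genes (1.04%), 51 towards males. Chromosome arm 2L held 30 of 1976 genes (1.52%) and 2R 15 of 2176 (0.689%).

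The departures lay mostly in males. France males, set against the mean of the other male groups, were called at 98 of the 123 departures with no call between the females, at 60 of them higher and at 38 lower. The female side alone was called at 22 and both sides at 3. Over all 13966 probe sets France males were called against other males at 719, and France females against other females at 268. Calls on the male side were thus also the more frequent ones over all probe sets. The side called describes where a departure lies and is no further support for it. In 48 of the 123 (39.0%) every France male lay above every other array of the series, against 461 of all probe sets (3.3%). In 36 (29.3%) every France male lay below all 12 other males, against 1232 of all probe sets (8.82%). In 56 (45.5%) every France male lay above all 12 other males, against 861 (6.16%). Every France female lay above all 26 other arrays in 10 (8.13%), against 104 (0.745%). France females all lay above the 11 other females in 12 (9.76%), against 600 (4.3%). They all lay below them in 23 (18.7%), against 2212 (15.8%), a share near that of all probe sets.

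Seen from the other strains, 38 of the 50 departures towards females were probe sets higher in males in the mean of the other strains, and 17 of these 38 were not called between the sexes of France while 21 still were. Of the 73 departures towards males, 44 were not called in the mean of the other strains and 43 of these were higher in males in France. A further 16 were higher in females in the other strains, of which 15 were not called in France, and 13 were higher in males in both. In 40 of the 123 departures (32.52%) no group mean reached 5, against 42.03% of all probe sets.

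**Figure D2:**
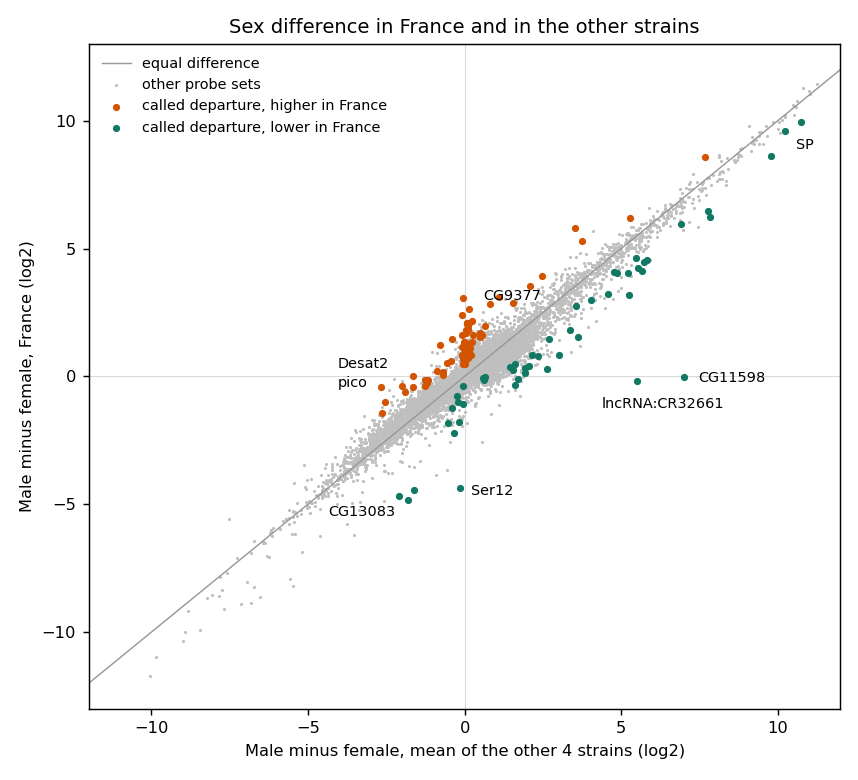
Male minus female difference of each probe set in France (vertical axis, log2) against the mean of the other 4 strains (horizontal axis, log2), with the 123 called departures coloured by direction. Most of the 13966 probe sets follow one line (r = 0.971), and CG11598 lies near 0 in France and at 7.0 in the other strains.

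The 2 lowest departures were at genes high in males of every other strain and low in both sexes of France. CG11598, on chromosome arm 3R, measured 2.87, 2.88 and 2.82 in France males and 2.85, 2.91 and 2.83 in France females, against 9.48 to 10.84 in the 12 other males and 2.90 to 3.21 in the 11 other females. France males thus lay at the level of females, with no overlap with other males. Its difference was -0.01 in France and 7.0 in the mean of the other strains (6.64 to 7.73), a departure of -7.01 ± 0.06 (SE, limma adjusted p = 4.84e-26). No measure of background was used here, so where one side lies at the low level of the sex that lacks a transcript, the log2 difference may understate the change and no fold is given.

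The X-linked non-coding RNA lncRNA:CR32661 gave the second lowest departure, -5.71 ± 0.16 (SE, adjusted p = 6.45e-16). It measured 2.84, 2.78 and 2.76 in France males and 2.91, 3.08 and 2.95 in France females, against 7.57 to 9.63 in other males and 3.05 to 3.28 in other females. As for CG11598, no France male came near the males of another strain. A shallower form of the pattern was seen for CG11815, with 3.37, 3.54 and 3.42 in France males, 4.82 to 6.73 in other males and a departure of -2.36. CG15408 measured 1.85, 1.81 and 1.78 in France males against 2.08 to 5.18 in other males, with a departure of -1.78 that was lost without Antigua or Hikone (adjusted p up to 0.0204). CG15548 was uneven among France males, at 4.27, 5.31 and 4.28, all below the 5.88 to 7.87 of other males, and departed by -2.18, or -1.98 without Cambridge (adjusted p = 0.0367).

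In BG642163 and CG42564 France males were called higher than France females. BG642163 measured 5.85, 5.78 and 5.56 in France males and 2.53, 2.50 and 2.56 in France females, against 5.87 to 9.54 in other males, with a departure of -2.06 ± 0.20 (SE, adjusted p = 1.46e-05). Its highest France male and the lowest other male nearly met. CG42564 measured 5.03, 5.86 and 4.82 in France males against 6.73 to 8.19 in other males, and departed by -2.08, or -1.94 without Cambridge (adjusted p = 0.0139). CG17738 measured 2.31, 3.09 and 2.10 against 2.66 to 5.8, so that France male replicate 2 overlapped other males. Its France difference of 0.41 was not called (adjusted p = 1), and its departure of -1.65 (adjusted p = 2.94e-03) was lost without any of 5 single arrays. This departure was also lost without Glasgow, Cambridge or Hikone, with adjusted p up to 0.216. The sex difference of CG42564 in France, 1.53 (adjusted p = 8.58e-03), was likewise lost without any of 5 of the 6 France arrays.

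toc, a microtubule-associated protein gene with a known role in oogenesis, was expressed in both sexes. It measured 5.65, 6.04 and 5.94 in France males and 6.23, 6.21 and 6.16 in France females, against 7.29 to 8.51 in other males and 5.97 to 6.66 in other females. France females lay within the range of other females while France males lay below all other males. The departure was -1.94 ± 0.15 (SE, adjusted p = 2.69e-07).

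**Figure D3:**
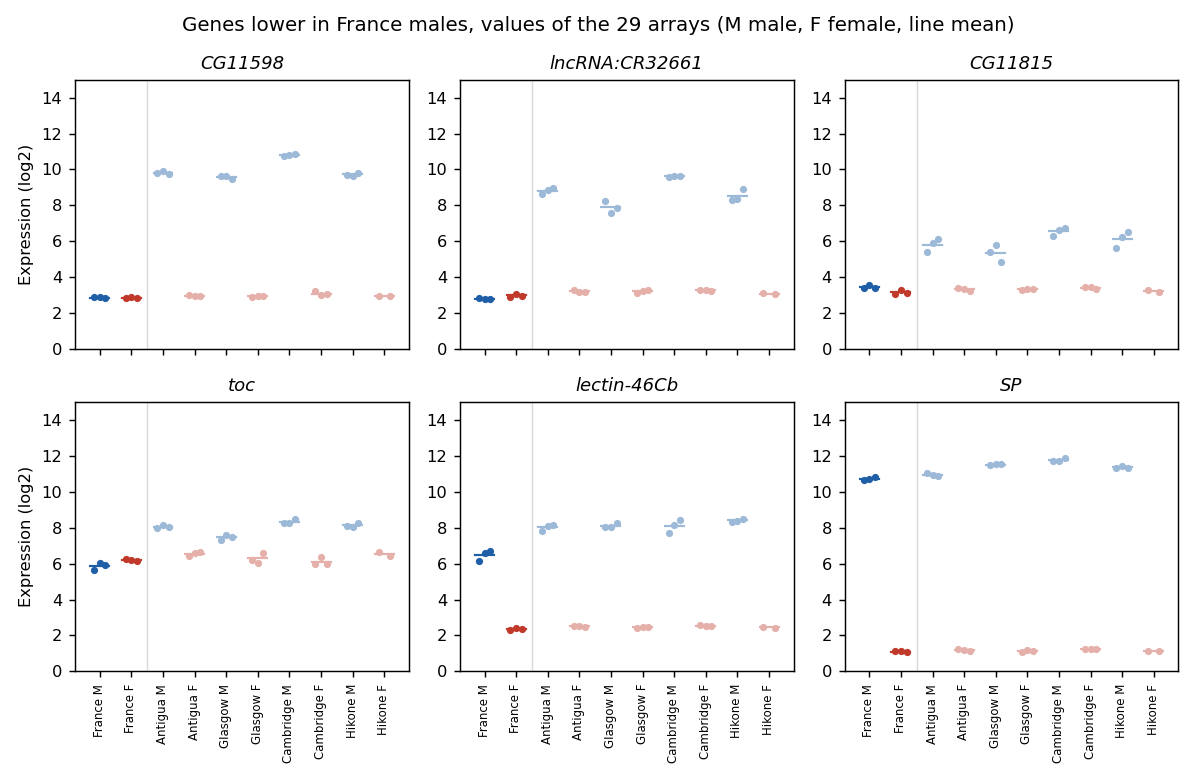
Expression (log2, vertical axis) of 6 genes in each array, with males and females of France and of the other 4 strains as separate points and bars at group means. France males lie below all 12 other males in every panel, by most for CG11598 (at most 2.88 against at least 9.48).

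Some seminal protein genes were lower in France males than in other males but still higher than in females. Of 27 accessory gland genes 3 had a called departure towards females and none towards males. A departure below 0 was found in 21 of the 27, against 5766 of all 10843 genes. The list's median departure was -0.61 against -0.01 over all genes. lectin-46Cb, a lectin that the female's response to sex peptide depends on, measured 6.15, 6.61 and 6.68 in France males against 7.71 to 8.51 in other males, and 2.32, 2.41 and 2.34 in France females. Its France difference of 4.12 ± 0.13 (SE) fell short of the 5.67 of the other strains by a departure of -1.55 ± 0.15 (SE, adjusted p = 1.94e-05). France males lay below every other male and far above females.

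Sems, a seminal serine protease, measured 7.42, 7.19 and 7.64 in France males against 8.48 to 9.72 in other males, with a departure of -1.31. CG17575 measured 6.34, 6.71 and 6.59 against 7.57 to 8.30, with a departure of -1.27. SP itself, whose France values are given above, measured 10.88 to 11.91 in other males, and its difference of 9.61 in France against 10.22 in the other strains was a departure of -0.61 ± 0.06 (SE, adjusted p = 3.08e-05).

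None of these genes, lectin-46Cb included, showed overlap between France males and other males. Further members of the network did not pass the test. lectin-46Ca departed by -1.19 (adjusted p = 0.02), intr by -0.86 (0.0305) and antr by -0.86 (0.639), while aqrs was at -0.08. Acp53Ea, another accessory gland protein gene, departed by -1.13 (adjusted p = 0.0369). The ejaculatory duct and bulb list had a median difference of 8.20 in France and 8.31 in the other strains, and the testis and sperm list 3.70 and 3.39, with no called departure towards either sex among the 6 and 42 genes of these lists.

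A second group towards females lay on the female side. Ser12, a serine protease gene, measured 7.38, 7.18 and 7.79 in France females, against 3.15, 3.03 and 3.08 in France males, 3.12 to 3.55 in other males and 3.34 to 3.68 in other females. France females stood above every other array of the series. Its difference was -4.36 ± 0.09 (SE, adjusted p = 4.21e-18) in France and -0.13 in the other strains, a departure of -4.23 ± 0.11 (SE, adjusted p = 8.74e-17).

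Psf1, a subunit of the GINS complex of DNA replication, gave a smaller change of the same form, with 6.62, 6.78 and 7.12 in France females, 4.65, 4.61 and 4.64 in France males and 4.80 to 5.35 in other females. Its departure was -1.85 ± 0.12 (SE, adjusted p = 9.85e-09). CG16956 measured 4.16, 3.89 and 3.93 in France females against 2.49 to 2.88 in other females, and departed by -1.60. No France female overlapped another strain's females for either gene. The adjoining genes CG13083 and CG13084 were higher in females of all strains and highest in France, with 9.54, 9.48 and 9.08 for CG13083 in France females against 5.29 to 9.12 in other females, and 8.60, 8.59 and 8.30 for CG13084 against 4.77 to 8.23. France and Hikone females overlapped for CG13083, whose departure of -3.02 (adjusted p = 3.54e-03) was lost without any 1 France array, with adjusted p up to 0.0353. This departure was also lost without Glasgow or Cambridge, with adjusted p up to 0.142. CG13084 departed by -2.60 (adjusted p = 9.11e-04), and its call was lost without Antigua, Glasgow or Cambridge, with adjusted p up to 0.0934.

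In departures towards males on the female side, France females were low. pico, an X-linked adaptor gene that links signalling to the actin cytoskeleton, measured 2.48, 1.94 and 2.08 in France females, 1.71, 1.84 and 1.68 in France males and 2.05 to 5.91 in other females. France females overlapped Antigua females, at 2.49, 2.05 and 2.97, while Glasgow, Cambridge and Hikone females measured 4.56 to 5.91. The difference was -0.42 in France and -3.83 to -0.77 in the other strains, a departure of 2.23 ± 0.21 (SE, adjusted p = 7.70e-06). sip2, on chromosome arm 2L, measured 5.58, 5.32 and 5.39 in France females, below the 6.42 to 7.89 of other females, and 8.61, 9.24 and 9.07 in France males, within or just below the 8.65 to 9.79 of other males. Its departure of 1.45 (adjusted p = 2.26e-03) was lost without any of 4 single France arrays, with adjusted p of 0.0202 to 0.0257, and was 1.07 (adjusted p = 1) without the Glasgow strain.

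Both called members of the glutathione S-transferase list, enzymes that conjugate toxic compounds, belonged here. GstD3 measured 6.56, 6.35 and 6.61 in France females against 7.12 to 10.19 in other females, and 7.99, 7.90 and 8.01 in France males. It departed by 1.87 ± 0.18 (SE, adjusted p = 2.21e-05), and without the Glasgow strain by 1.29 (adjusted p = 0.0978). GstD1 measured 11.34, 11.44 and 11.70 in France females against 12.30 to 13.17 in other females, with a departure of 1.04 (adjusted p = 1.02e-04). France females were below all other females for both genes, a position also found at 15.8% of all probe sets. The 2 genes are close relatives whose probes may detect each other's RNA. The departures of the remaining 34 members were not called.

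Desat2, a desaturase of cuticular hydrocarbons, was called with a departure of 1.67, but both France sexes were at the low level of most strains, 3.40, 3.30 and 3.31 in males and 3.32, 3.39 and 3.20 in females. Antigua females alone were high, with a highest value of 10.52. Without Antigua the departure was 0.03 (adjusted p = 1). CG11899 measured 8.72, 8.83 and 8.79 in France females against 9.09 to 10.40 in other females, and its departure of 1.05 (adjusted p = 7.01e-03) was lost without any of 20 single arrays (0.96 to 1.21).

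**Figure D4:**
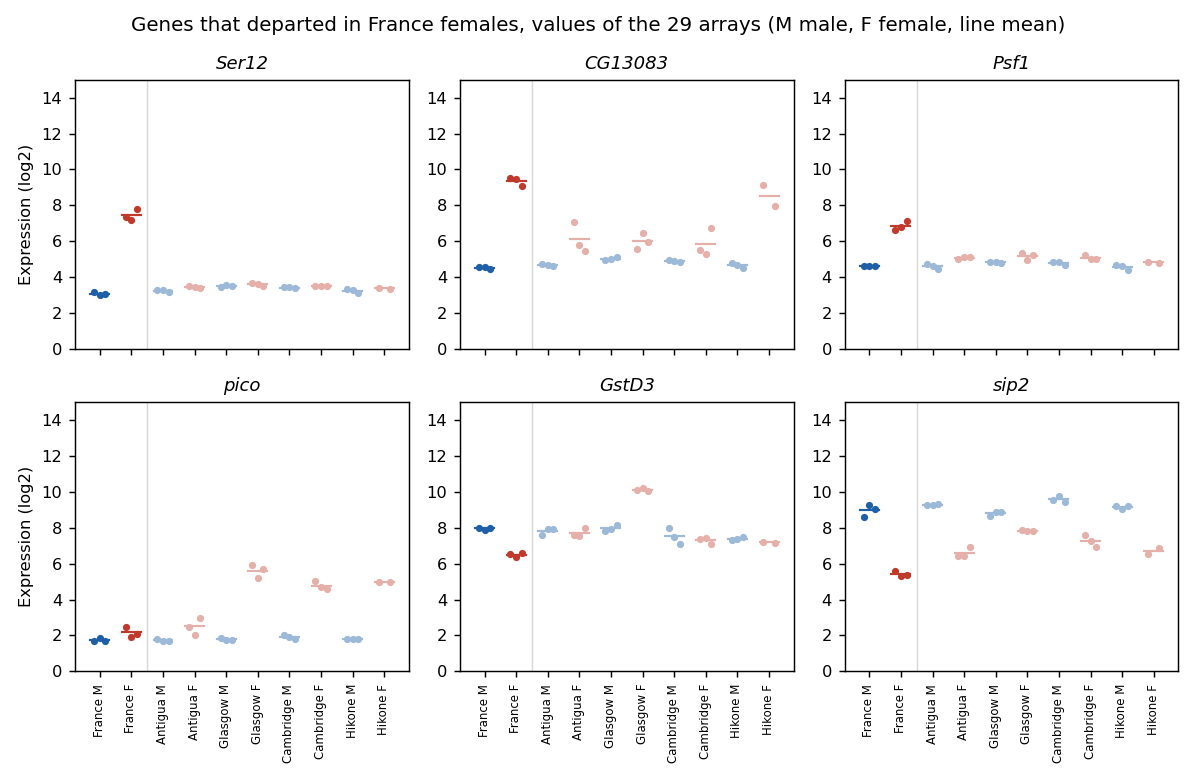
Expression (log2, vertical axis) of 6 genes in each array, with males and females of France and of the other 4 strains as separate points and bars at group means. France females are high for Ser12 (7.18 to 7.79 against at most 3.68 in other females) and low for sip2 and GstD3.

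Among the departures towards males were the 44 with no called sex difference in the mean of the other strains. The highest was a probe set of Cda4, an X-linked chitin deacetylase gene, with 5.94, 5.35 and 4.87 in France males and 2.72, 2.18 and 2.09 in France females, against 1.91 to 2.24 in other males and 2.11 to 2.24 in other females. All 3 France males stood above every other array. Its difference was 3.06 ± 0.17 (SE, adjusted p = 4.53e-10) in France and its departure 3.12 (adjusted p = 3.05e-09). It is not the brightest of the 4 Cda4 probe sets. The brightest departed by 1.30 (adjusted p = 0.0168) and the others by 0.32 and 0.06, so the probe sets of Cda4 disagreed.

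Genes of the cuticle, which were grouped after their values were seen except for the members of the cuticle and tanning lists, were found among them. Cpr49Ab, which encodes a chitin-binding cuticle protein, measured 6.98, 6.51 and 6.76 in France males and 5.36, 4.14 and 4.58 in France females, against 2.45 to 3.34 and 2.64 to 2.82 in other males and females. Both France sexes stood above all other arrays, males by more, and the departure was 1.99 ± 0.24 (SE, adjusted p = 8.52e-04), which was 1.87 (adjusted p = 0.0110) without France male replicate 1. The call was also lost without Antigua or Glasgow, with adjusted p up to 0.0323. Cpr49Ah, of the same family, measured 6.14, 5.01 and 4.99 in France males against 3.01 to 3.82 in other males, with a departure of 1.72 (adjusted p = 8.91e-03) that was lost without any of 24 single arrays (1.34 to 1.92). Cpr97Ea measured 4.87, 4.03 and 3.62 against 1.35 to 2.38, with a departure of 2.01 (adjusted p = 5.88e-03) lost without any of 22 single arrays (1.66 to 2.29).

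Cpr97Ea was the sole called departure among the 34 listed cuticle protein genes, whose median difference in France was -0.05. That list does not hold Cpr49Ab or Cpr49Ah. Cht2, a chitinase gene, was higher in females of the other strains and not called in France (-1.0), with 6.04, 5.62 and 6.02 in France males against 4.38 to 5.27 in other males. Its departure of 1.55 (adjusted p = 2.41e-03) was lost without any of 4 single France arrays, with adjusted p of 0.0142 to 0.0281. Leaving out Antigua or Glasgow also lost the call, with adjusted p up to 0.271. y, an X-linked gene for black melanin pigment, measured 3.80, 3.52 and 3.59 in France males against 2.93 to 3.34 in other males, with a small departure of 0.60 (adjusted p = 1.97e-04). It was the sole called departure of 21 cuticle tanning and pigment genes. In this list 4 genes were higher in France males (19.0%, against 10.9% of all genes) and none in females, among them yellow-e (2.14), whose call was lost without any of 5 single France arrays.

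Immune genes and genes of unknown function made up a further share. Tep3, a thioester protein gene of insect immunity, measured 6.08, 6.28 and 5.84 in France males and 3.97, 4.18 and 3.79 in France females, against 3.71 to 4.30 in other males. All France males stood above all other arrays, and the departure was 2.01 ± 0.13 (SE, adjusted p = 7.71e-09). psh, an X-linked protease gene upstream of the Toll pathway, measured 4.46, 3.73 and 4.57 in France males against 2.47 to 3.84 in other males, with 1 France male within that range. Its departure of 1.33 (adjusted p = 6.34e-03) was lost without any of 24 single arrays (1.17 to 1.59). Tep3 and psh were the 2 called departures among 28 immune recognition and signalling genes.

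CG9377, a serine protease homologue gene by its synonym in the gene table, measured 5.96, 5.24 and 5.37 in France males against 2.72 to 3.37 in other males, with a departure of 2.49 ± 0.14 (SE, adjusted p = 6.12e-10). scaf, another serine protease homologue gene, measured 5.26, 5.05 and 4.48 against 2.98 to 3.71, with a departure of 1.73, and its second probe set was close to 0. CG14990, of the same family by its synonym, measured 5.09, 4.21 and 5.49 against 2.31 to 2.89, and its departure of 1.77 (adjusted p = 8.78e-03) was lost without any of 27 single arrays. For all 3 genes France males lay above the males of every other strain. lectin-33A, a C-type lectin gene, was uneven among France males, with 6.62, 5.01 and 5.09 against 2.71 to 3.19 in other males, and departed by 2.48 ± 0.27 (SE, adjusted p = 1.56e-04).

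Genes without a role stated here followed the same form. CG17107 measured 5.21, 4.84 and 5.24 in France males against 2.15 to 3.70 in other males, with a departure of 2.04. CG15546 measured 5.91, 6.31 and 5.98 against 3.64 to 4.83, with a departure of 1.95. CG13722 measured 6.36, 5.89 and 5.36 against 3.15 to 3.71, with a departure of 1.81 (adjusted p = 3.62e-03). No France male overlapped the other males for these genes. CG3999 measured 5.07, 4.52 and 4.72 against 2.96 to 3.64, again without overlap, and its departure of 1.34 (adjusted p = 8.39e-03) was lost without any of 25 single arrays (1.17 to 1.61). The call for CG13722 was lost without any of 4 single arrays, France male replicates 1 and 2, France female replicate 1 and Hikone female replicate 1, with adjusted p of 0.0101 to 0.0279. It was also lost without any 1 of the other 4 strains, with adjusted p up to 0.0832.

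Nmdmc, Shmt and Gs1, metabolic enzyme genes picked after their values were seen, are given together only for their known roles. Nmdmc, a methylenetetrahydrofolate dehydrogenase gene, measured 7.88, 8.70 and 8.20 in France males and 7.02, 6.75 and 7.28 in France females, against 5.93 to 7.0 in other males and 6.32 to 8.14 in other females. France males stood above other males while France females lay within the range of other females, and the departure of 2.02 (adjusted p = 7.73e-03) was lost without any of 22 single arrays. Shmt, the X-linked serine hydroxymethyltransferase gene, measured 8.24, 8.17 and 8.12 in France males against 5.82 to 7.5 in other males. It was higher in females of the other strains by 0.87 on the log2 scale and near equal in France, a departure of 1.10 ± 0.11 (SE, adjusted p = 2.57e-05) that was 0.73 without the Cambridge strain (adjusted p = 0.0668).

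Gs1, a glutamine synthetase gene, measured 8.16, 8.01 and 7.95 in France males against 6.05 to 7.19 in other males and had a departure of 1.64 (adjusted p = 3.65e-03), lost without any 1 of the 6 France arrays, with adjusted p up to 0.0386. Its departure was also lost without Antigua or Glasgow, with adjusted p up to 0.146. In each of these 3 genes all France males were above all other males, a position also found at 6.16% of all probe sets.

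**Figure D5:**
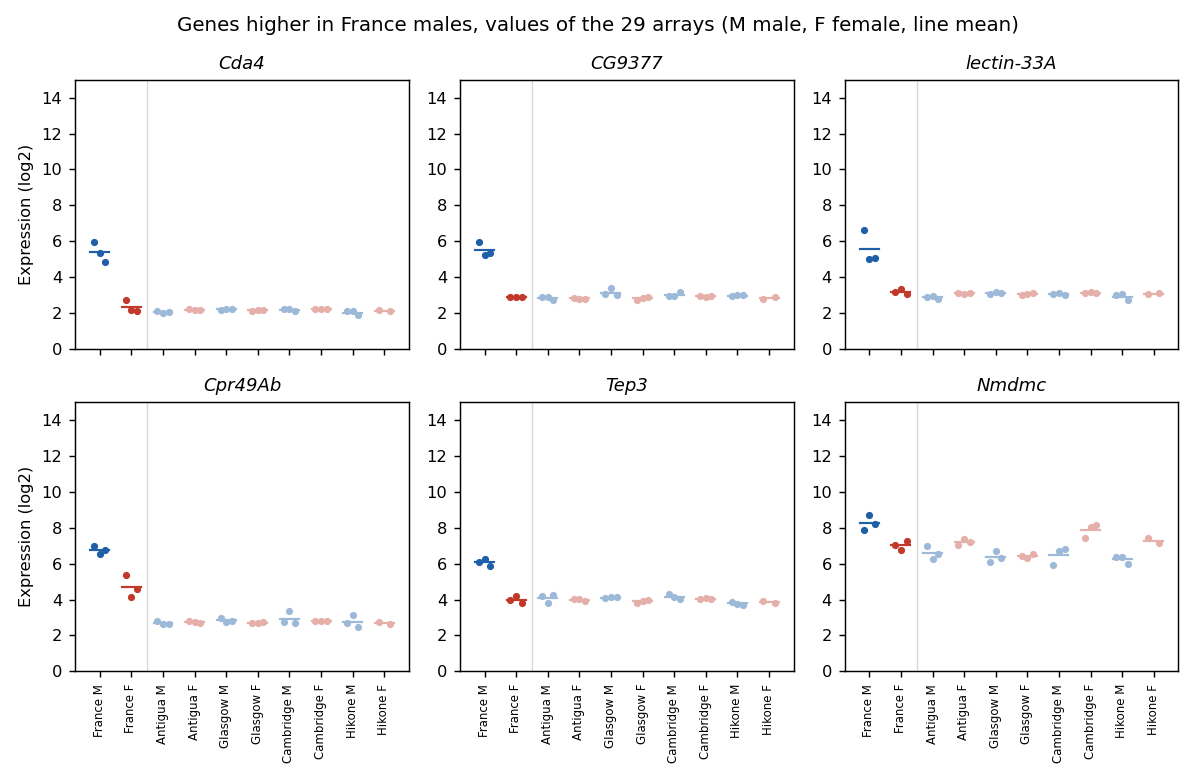
Expression (log2, vertical axis) of 6 genes in each array, with males and females of France and of the other 4 strains as separate points and bars at group means. France males lie above all 12 other males in every panel, for Cda4 at 4.87 to 5.94 against at most 2.24.

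In some lists nearly all departures had the same sign while few or none were called, and no test was made of such a list. Over all 10843 genes 5077 departures were above 0 and 5766 below 0. The 7 antimicrobial peptide genes had a median difference of 0.78 in France and -0.89 in the other strains, and all 7 departures were above 0 (median 1.54), with none called. DptB, a diptericin gene, measured 10.50, 10.07 and 9.86 in France males and 9.44, 9.27 and 8.94 in France females, against 2.58 to 8.73 in other males. AttD, an attacin gene, measured 6.10, 6.44 and 5.13 in France males against 2.12 to 4.11 in other males. France males were above all other males for both genes, and for AttD they differed from the other male groups by 2.90 (adjusted p = 1.49e-06). Def, the defensin gene, was higher in France than in the mean of the other strains in both sexes, by 2.85 in males (adjusted p = 2.70e-07) and 2.24 in females (adjusted p = 2.53e-05). These contrasts compare strains within 1 sex and do not show a changed sex difference for AttD or Def. Of 15 haemocyte and basement membrane genes 14 had a departure above 0, with a median of 0.38 and none called.

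Digestive enzyme genes had departures mostly below 0. Of 39 genes 35 had a departure below 0, with a median of -1.07, a median difference of -0.06 in France and 0.89 in the other strains, and Ser12 as the sole called departure. Without the 2 Cambridge arrays the median departure was -1.34 and 4 genes were called. Jon99Fi, a midgut serine protease gene, measured 8.74, 7.37 and 8.53 in France males and 10.90, 10.90 and 10.57 in France females, with a departure of -2.10 that was not called. Of 26 muscle contraction genes 25 had a departure below 0, with a median of -0.75 and medians of 0.85 in France and 1.52 in the other strains, and none was called. Act88F, the flight muscle actin gene, measured 13.69, 13.71 and 13.69 in France males and 13.37, 13.33 and 13.07 in France females, above the highest males (13.30) and females (12.75) elsewhere, and its departure was -1.81 ± 1.47 (SE). Mlp60A, a muscle LIM protein gene, was the exception, at 8.48, 8.59 and 8.61 in France males and 7.54, 7.12 and 6.34 in France females against 3.42 to 4.80 and 3.42 to 3.82 elsewhere, with a departure of 1.26 that was not called. The eggshell list had a median departure of -1.34, with 18 of 19 genes below 0 and none called, and -0.94 without the 2 Cambridge arrays.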

How the data were processed

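Total RNA of whole flies was hybridised to Affymetrix Drosophila Genome 1 arrays, 1 per sample. The deposited log2 values were made by the authors with GCRMA, which adjusts background for probe GC content, quantile normalizes the arrays and summarises each probe set, and its version is not given in the sources used here. The deposited table held 14010 probe sets. After 44 controls were left out, 13966 remained. A linear model with 10 group means of strain and sex was fitted over all 29 arrays in limma (version 3.58.1, R version 4.3.3). Contrasts were France male minus female, the same difference minus the mean of the other 4 strains (departure), and each sex of France against the mean of the other groups of that sex. P-values were Bonferroni adjusted over all probe sets and called below 0.01.

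Genes were represented by their brightest probe set. Of the probe sets 12442 had 1 gene symbol, 327 several and 1197 none. Symbols were updated through the Release 6 gene table, in which 12393 were found. The gene names listed by function numbered 858, of which 639 were measured. Genes were named by a rule: the 12 highest and 12 lowest called France differences, the 14 highest and 14 lowest called departures outside the range of the other strains, the leading called members of each list, and controls of sex. The highest departure, Cda4, and the genes grouped in the text by enzyme or cuticle function outside the lists were added after their values were seen. The members and lists were chosen with earlier results of these data known, and list medians are descriptions without a test. Data of 13966 probe sets were simulated as independent noise around a single mean per probe set. They held no other sex or strain differences and no arrays with transcripts of the other sex. With 200 changes planted in France males, 93.5% of log2 sex differences of 2 and 60.5% of those of 1 were recovered, and 90.5% and 52% of departures. These rates apply to that setting and may not hold for the real arrays. P-values measure the spread between separately collected and extracted RNA samples, and the number of arrays limits the precision. Scaling, low-value filters, variance models, a replicate block, thresholds and leaving out arrays or strains were tried as alternatives.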

Additional observations from a re-analysis of the deposited data

Results flagged for a closer look

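The difference between the sexes of France and of the other 4 strains was itself tested, and 123 probe sets passed (0.881%). The departures named above are listed here because that test of the difference marked them. Each value is on the log2 scale, below 0 where France lay further towards females.

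Among genes in which France males were low, the departures were -7.01 for CG11598, -5.71 for lncRNA:CR32661, -2.36 for CG11815, -2.18 for CG15548, -2.08 for CG42564, -2.06 for BG642163, -1.94 for toc, -1.78 for CG15408 and -1.65 for CG17738. Seminal protein genes gave -1.55 for lectin-46Cb, -1.31 for Sems and -0.61 for SP, and CG17575 gave -1.27. Genes in which France females were high gave -4.23 for Ser12, -3.02 for CG13083, -2.60 for CG13084, -1.85 for Psf1 and -1.60 for CG16956.

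Where France females were low, the departures were 2.23 for pico, 1.87 for GstD3, 1.45 for sip2, 1.05 for CG11899 and 1.04 for GstD1. Antigua females were also low for pico, and Desat2, at 1.67, was set by Antigua females. Where France males were high, genes of chitin, cuticle and pigment gave 3.12 for Cda4, 2.01 for Cpr97Ea, 1.99 for Cpr49Ab, 1.72 for Cpr49Ah, 1.55 for Cht2 and 0.60 for y. Immune genes, lectins and serine protease homologues gave 2.49 for CG9377, 2.48 for lectin-33A, 2.01 for Tep3, 1.77 for CG14990, 1.73 for scaf and 1.33 for psh. The metabolic enzyme genes named above gave 2.02 for Nmdmc, 1.64 for Gs1 and 1.10 for Shmt. The remaining values were 2.04 for CG17107, 1.95 for CG15546, 1.81 for CG13722 and 1.34 for CG3999.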

How the results depend on the processing

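The number of probe sets called between the sexes of France (3148) was 5525 after quantile normalization within each sex and median centring, of which 20.2% were higher in males, 1327 from the 6 France arrays alone, 7314 with Benjamini-Hochberg adjustment and 1940 at an adjusted p of 0.0001. Repeated quantile normalization gave 3259 (37.3% higher in males). The number of departures (123) was 190 with array weights, whose estimation did not converge, 486 with Benjamini-Hochberg adjustment and 48 at 0.0001. Other alternatives moved each count by less than 1.5 times. Leaving out 1 of the 6 France arrays gave 2534 to 2660 sex differences, the fewest without France female replicate 1, and leaving out any 1 of the 29 arrays gave 86 to 127 departures, the fewest without France female replicate 3, and leaving out a strain gave 88 to 131 departures. No value of a gene checked in this way changed sign. Of the 43 departures flagged above 29 held without any single array and 14 were lost without at least 1, as were 11 of 88 named sex differences. Without 1 of the other strains 21 of the 43 were lost, and without the 2 Cambridge and 2 Hikone arrays with transcripts of the other sex, left out together after the data were seen, 8 were lost (CG17738, Nmdmc, Cpr97Ea, Cpr49Ab, Cpr49Ah, CG13722, CG14990 and CG3999). The median of the immune recognition and signalling list in France, and that of the haemocyte list, changed sign with the scaling, and departure medians within 0.1 of 0 are not read as a direction. France replicates of the same number share only that number: the deviations of same-numbered males and females correlated at 0.05, 0.14 and 0.11, each array best with its own number. With the number as a replicate block 2970 sex differences (1251 higher in males, 1719 in females) and 108 departures (63 and 45) were called.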

Other observations

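Of the 123 called departures 15 were at probe sets that are not the brightest of a gene with 1 symbol, and 9 of these had a brighter probe set for the same gene that was not called. Apart from Cda4 these were CG17646 (1.93 at the called probe set, -0.17 at the brightest), Erasp (1.65 and 0.48), Nt5b (1.35 and 0.38), CG1607 (1.10 and -0.27), mthl8 (0.93 and -0.06), Spn77Bb (0.90 and 0.71), Nuak (0.84 and -0.14) and osy (0.74 and -0.75). Probe sets of 1 gene can read different transcripts, and the cause of these disagreements was not tested.

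Further departures of the France strain had small values in genes of known function. Adar, which edits adenosines in neural RNA, departed by 0.59, and Upf1, a factor of nonsense-mediated decay, by -0.81. GLaz, a lipocalin gene of stress resistance, departed by 1.04 and the mitochondrial ribosomal protein gene mRpS35 by 1.13. These were chosen after their values were seen.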
